A study of Rattus norvegicus with 12 samples.

Results

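miR-183, miR-96 and miR-182 were followed in acinar cells of the rat parotid gland across terminal differentiation. These miRNAs are made from neighbouring hairpins, and each was measured with 1 mouse-labelled qRT-PCR assay, so that 3 of the 375 miRNA assays on the panel belong to the cluster. They were chosen by name, whatever their values, after dropping the species prefix and any arm suffix. No rat-labelled assay of the cluster was on the panel. The 12 samples came from untreated, albino Sprague Dawley rats, with 3 samples at embryonic day 20 (E20) and 3 at each of postnatal days 5 (P5), 15 (P15) and 25 (P25). Acinar cells were recognized on stained sections by their structure and captured by laser microdissection, and the samples of an age came from separate litters. The number of animals per sample is not given in the sources used here. These are bulk samples, in which fewer cells that make a miRNA and less miRNA per cell cannot be told apart.

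The cluster is conserved among vertebrates, and its hairpins are thought to be cut from a common primary transcript. It is best known from sensory cells: hair cells of the inner ear, photoreceptors and sensory neurons express it at high levels, and changes in the seed of miR-96 cause hearing loss in mouse and human. It is also found in epithelia and is raised in many epithelial tumours, where miR-96 and miR-182 lower the transcription factor FOXO1. A miRNA recognizes mRNAs mainly through its seed, bases 2 to 8 from the 5′ end, so the seeds are shown to make clear how alike the members are as regulators.

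In RefSeq (GRCr8 assembly) all 3 hairpins lie on the minus strand of chromosome 4, within 3908 bases. In the order of transcription, Mir183 (chr4:59756044-59756153) comes first, Mir96 (chr4:59755841-59755946) follows after a gap of 97 bases, and Mir182 (chr4:59752246-59752307) after a further gap of 3533 bases. Nrf1 and Ube2h are the nearest annotated protein-coding genes on either side, and another hairpin, Mir3553, is annotated opposite Mir183 on the plus strand. The assay names carry no arm. Older miRNA names without a suffix stood for the more abundant arm, which is the 5′ arm for this cluster, so that arm is shown here, read 5′ to 3′ with the seed in capitals; RefSeq lists a 5p and a 3p form for miR-183 and miR-96, and 1 mature form for miR-182.
miR-183: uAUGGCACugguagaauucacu
miR-96: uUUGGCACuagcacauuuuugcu
miR-182: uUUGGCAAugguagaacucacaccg

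The seeds of miR-96 and miR-182 share 6 of 7 bases and differ by C8A, where positions count from the 5′ end, the first base is that of miR-96 and the second that of miR-182. miR-183 and miR-96 also share 6 of 7 seed bases, with the difference A2U. Outside the seed the relation was another one: compared without gaps, miR-183 and miR-182 were identical at 13 of 15 bases, against 7 of 15 for miR-183 and miR-96 and 6 of 16 for miR-96 and miR-182. No other entry among the 724 mature rat miRNAs in the table had the seed of a cluster member.

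All 3 miRNAs were detected in the captured material at every age. Of the 36 wells of the cluster, 35 gave a threshold cycle (CT), the number of PCR cycles until the fluorescence passes a set level. At full efficiency the template doubles with each cycle, so a lower CT means more miRNA. miR-183 and miR-182 were detected in all 12 samples, as were 32% of the 375 assays, and miR-96 in 11. Detection in at least 11 samples was reached by 40.8% of all assays. The missing well was miR-96 in P15 replicate 1, the array with the fewest detected miRNAs, 179. miR-182 always crossed the threshold first, with CT values from 27.8 to 34.5. miR-96 lay between 29.2 and 34.5 and miR-183 between 32.3 and 37.2. For miR-183, 5 of the 12 CT values were above 35, a range in which single wells are less precise. CT values of different primers do not measure relative abundance, since each assay has its own efficiency.

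**Figure D1:**
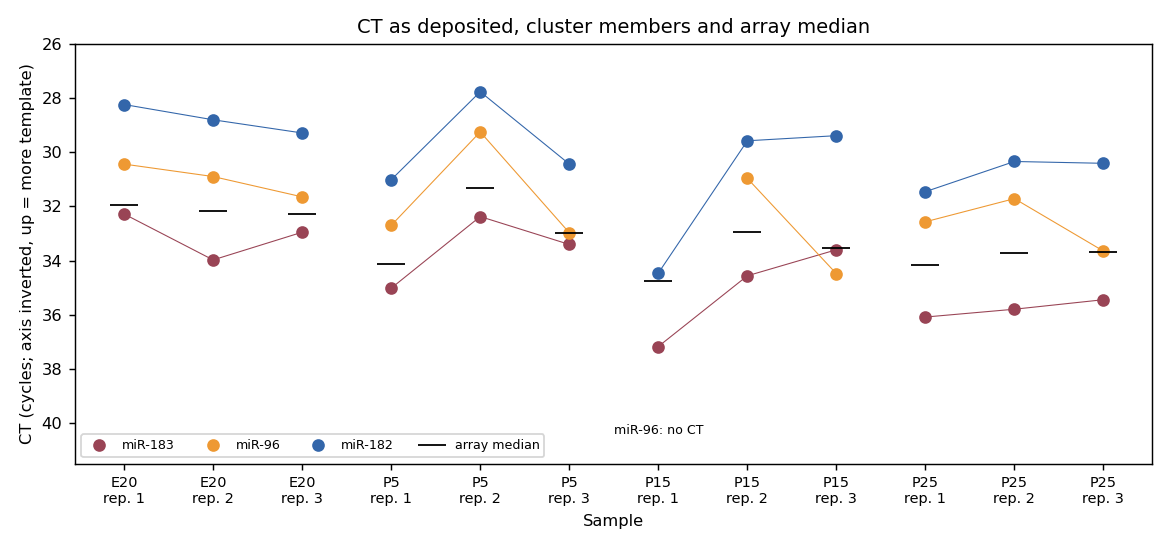
CT of miR-183, miR-96 and miR-182 as deposited (y axis, cycles, inverted so that up is more template) in each of the 12 samples (x axis), with a black bar at the array's median over its detected miRNAs. miR-182 had the lowest CT of the cluster on every array, and miR-96 gave no CT in P15 replicate 1.

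The number of detected miRNAs and the array median CT differed between arrays, and both moved with age. Between 282 and 306 miRNAs were detected per array at E20, 224 to 307 at P5, 179 to 273 at P15 and 202 to 223 at P25, while the array median CT went from 31.9 to 32.3 at E20 to 33.7 to 34.2 at P25. Each level is therefore given relative to its own array: the assay's CT was taken away from the median CT over the array's detected miRNAs, which gives a log2 scale that rises with the amount of miRNA. All 7 assays of the miR-200 family, which marks epithelium, had a CT in 12 of 12 samples. Assays of miRNAs known mainly from other cells gave a CT too, and the source of this RNA was not tested. The paper states that caps were checked under the microscope and that only pure ones were used. Of 3 tested assays of striated muscle miRNAs, 2 fell between E20 and P25 and none rose, where 12% of all tested assays were called, and their summed level went from between 4.36 and 6.23 at E20 to between 0.17 and 1.88 at P25 on the log2 scale. Of the 5 assays of nerve miRNAs only 2 were detected often enough to be tested and neither passed, with a summed level of 0.51 to 4.84 at E20 and -0.10 to 3.78 at P25. The defining nerve miRNA miR-124 had a CT in 10 of 12 samples and miR-9 in 7. How much other cells contributed to the levels of the cluster was not tested.

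miR-183 was the lowest of the cluster relative to its array and lay below the array median in all 12 samples. At E20 the normalized level was -0.35, -1.79 and -0.66 in replicates 1, 2 and 3. At P5 it was -0.88, -1.05 and -0.41, and at P15 it was -2.42, -1.63 and -0.08. At P25 it was -1.91, -2.09 and -1.75, the tightest group of the 4 ages. All P25 wells of miR-183 had a CT above 35, from 35.4 to 36.1, in the less precise range. The age means (± SD, n = 3 each) were -0.93 ± 0.76, -0.78 ± 0.33, -1.38 ± 1.19 and -1.92 ± 0.17 in the order of age. E20 replicate 2 lay inside the P25 range, whereas all P5 values were above all P25 values.

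miR-96 was above the array median in 10 of the 11 samples with a CT. Its normalized level was 1.49, 1.29 and 0.65 in the E20 replicates, and 1.44, 2.08 and 0.02 at P5. At P15 it was 1.97 in replicate 2 and -0.96 in replicate 3, the lowest value of the series for this miRNA. At P25 it was 1.61, 1.99 and 0.05. The age means (± SD) were 1.14 ± 0.44, 1.18 ± 1.05, 0.50 ± 2.07 and 1.22 ± 1.03 in the order of age, from 3 samples each but 2 at P15, and all 4 ages overlapped.

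miR-182 was the member farthest above the array median. Its normalized level was 3.70, 3.39 and 3.01 in the E20 replicates and 3.12, 3.56 and 2.56 at P5. At P15 it spread from 0.29 in replicate 1 over 3.35 in replicate 2 to 4.14 in replicate 3, the lowest and the highest value of the series. At P25 it was 2.72, 3.37 and 3.29. The age means (± SD, n = 3 each) were 3.36 ± 0.34, 3.08 ± 0.50, 2.59 ± 2.03 and 3.13 ± 0.35 in the order of age. Apart from P15 replicate 1, every sample lay within the range from 2.56 to 4.14.

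**Figure D2:**
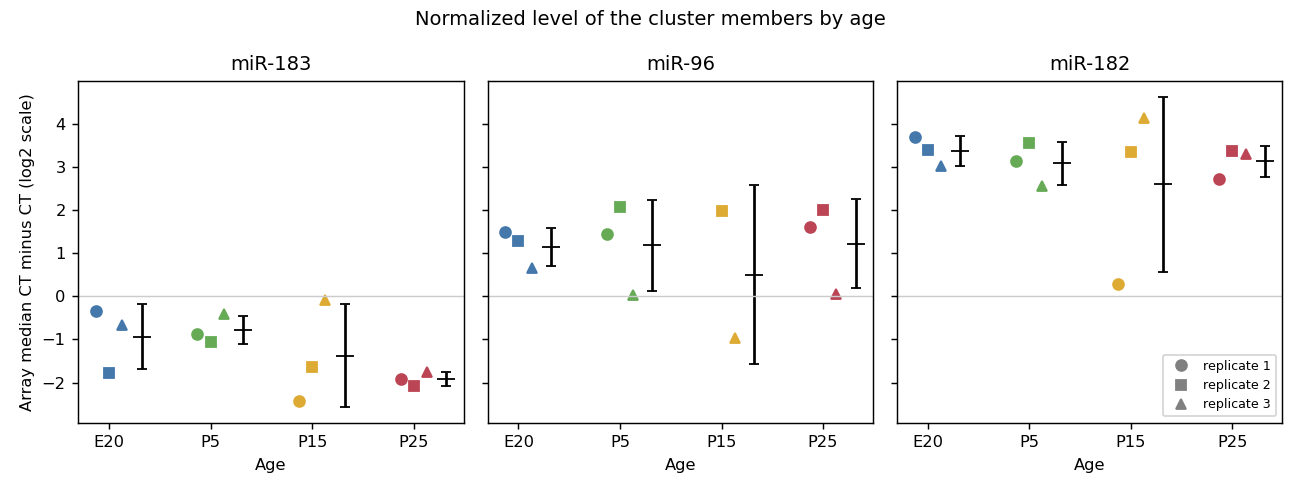
Normalized level (y axis, array median CT minus CT, log2 scale) of each cluster member at the 4 ages (x axis). Points are samples with the replicate number as shape, and the black bar beside them is the mean ± SD of the measured values. The ages overlapped for miR-96 and miR-182, and for miR-183 the P25 samples lay at -2.09 to -1.75, below all P5 samples.

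Whether the cluster changed during differentiation was asked with limma on the 192 assays that had a CT in 2 or more of the 3 samples of each age, with missing wells imputed. No member passed the test among the 4 ages. The adjusted p-values of the F test were 0.731 for miR-183, 0.842 for miR-96 and 0.900 for miR-182, and 7.81% of all tested assays were called. Before adjustment 0 of the 3 members and 40 of the 192 assays had a p-value under 0.05. No member passed for a linear trend over age, and 14.1% of the assays did. The slope per 10 days was -0.40 (standard error 0.26) for miR-183, -0.07 (standard error 0.31) for miR-96 and -0.12 (standard error 0.31) for miR-182 on the log2 scale. The corresponding adjusted p-values in limma were 0.297, 0.916 and 0.828.

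Between the first and the last age, 12% of the 192 assays were called and none of the cluster. miR-183 changed by -0.98 from E20 to P25 on the log2 scale (standard error 0.76, adjusted p = 0.399, limma), with a 95% interval from -2.59 to 0.62. The interval thus reaches from 6.02-fold lower to 1.54-fold higher at P25. miR-96 changed by 0.07 (standard error 0.89, adjusted p = 0.941, limma; 95% interval -1.81 to 1.96), and miR-182 by -0.24 (standard error 0.89, adjusted p = 0.864, limma; 95% interval -2.12 to 1.65). For these members changes larger than 3.88-fold upward for miR-96 and 4.35-fold downward for miR-182 lay outside the interval. Exact two-sided permutation tests of the measured values gave p = 0.2, 0.9 and 0.4 for miR-183, miR-96 and miR-182, and with 3 samples against 3 cannot go below 0.1. All 3 members overlapped between E20 and P25, whereas the ranges of 39.1% of the assays measured in all 6 samples did not.

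**Figure D3:**
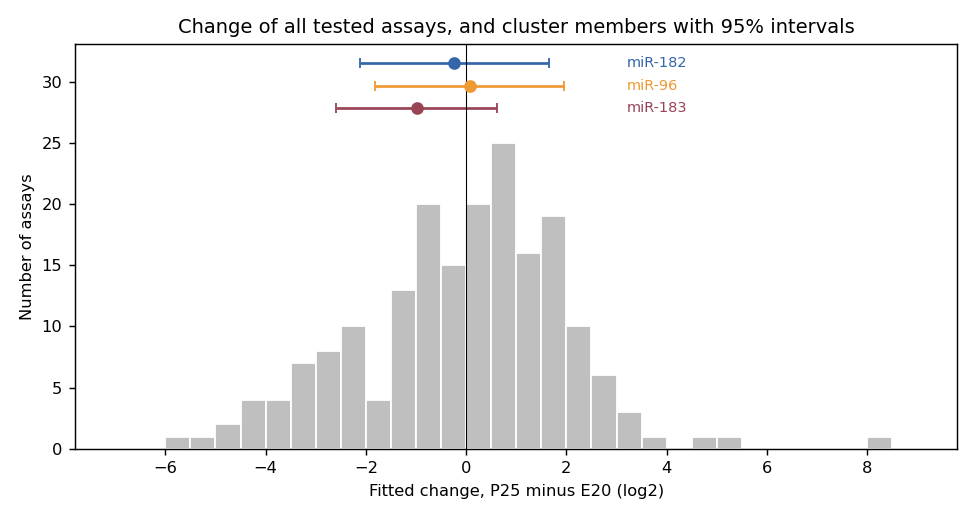
Fitted change from E20 to P25 of the 192 tested assays (histogram; x axis, log2 scale; y axis, number of assays), with the 3 cluster members as points with 95% intervals above it. The intervals of miR-183, miR-96 and miR-182 all include 0.

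By size, the fitted change of miR-96 was small: 0.521% of the tested assays had a smaller absolute change from E20 to P25. With 1 sample left out, however, it ran from -0.32 to 0.66, and over all settings from -1.65 to 0.89. The share was 7.29% for miR-182 and 38.5% for miR-183, and the median absolute change was 1.30 over all tested assays. The replicate spread was not unusual. The SD of the replicates around their age means was 0.73 for miR-183, 1.08 for miR-96 and 1.08 for miR-182, against a median of 1.11 over all tested assays. Such a design leaves moderate changes undetected. In simulated tables of 192 assays with independent noise, the E20 to P25 contrast called 73.8% of changes of 4 and 19.5% of changes of 2 on the log2 scale.

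None of the other contrasts called a member. miR-183 differed most between P5 and P25, with a change of -1.14 (standard error 0.76, adjusted p = 0.540, limma; 95% interval -2.74 to 0.47). Its ranges at these ages did not overlap, which held for 21.7% of the assays measured in all 6 samples, and an exact two-sided permutation test gave p = 0.1, the smallest it can give with 3 samples against 3. In this contrast 3.12% of the tested assays were called. Same-numbered postnatal samples deviated together across the panel, though no label pairs samples across ages. Paired by number, miR-183 differed between P25 and P5 by -1.03, -1.04 and -1.34. Because its ranges at these ages did not overlap, any pairing would give 3 negative differences. The exact two-sided sign-flip permutation p of 0.25, the smallest possible with 3 pairs, was thereby fixed in advance and adds nothing to the unpaired test. With the number as a block over the postnatal ages, the limma adjusted p-value was 0.434 for miR-183 (standard error 0.73, 95% interval -2.68 to 0.41). This fit called 14 of the 192 assays, against 2 over the postnatal ages without the block and 6 in the fit of all 4 ages without it. The pair differences of miR-96 were 0.17, -0.08 and 0.02. miR-96 and miR-182 changed by 0.04 (adjusted p = 0.973 for both, limma) over the same interval. In the contrasts of E20 with P5, E20 with P15, P5 with P15 and P15 with P25, limma called 0% of the assays and had 15, 40, 12 and 17 assays with an unadjusted p-value under 0.05, none of them a member. The fitted changes of the members ranged there from -0.88, for miR-96 between P5 and P15, to 0.92, for miR-96 between P15 and P25. Both use the imputed P15 replicate 1, and the measured means of miR-96 gave -0.68 and 0.71. The P15 mean of miR-182 rests on replicate 1: its change from E20 to P15 was -0.77 (adjusted p = 0.642, limma), with the other P15 samples at 3.35 and 4.14 against 3.36 at E20.

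The cluster was next examined for co-variation, since its members are thought to share a primary transcript. On the same array the CT of a member can be set against that of another without any reference. Over all samples, the difference of miR-183 and miR-182 was the steadiest. It lay between 2.71 cycles in P15 replicate 1 and 5.46 cycles in P25 replicate 2, with a mean of 4.29 ± 0.86 (SD, n = 12). Among all 15756 pairs of tested assays that shared at least 10 samples, 5.59% had a smaller SD, and the median SD was 1.74 cycles. Over all samples miR-96 followed miR-182 less closely, with a mean difference of 2.23 ± 1.14 cycles (SD, n = 11), and 16.4% of pairs had a smaller SD. That place behind miR-183 and miR-182 rests on P15 replicate 3 at 5.10 cycles. Every other sample lay between 1.11 and 3.24 cycles for miR-96 minus miR-182. This order did not hold at each age. At E20 and P5 the SD was smaller for miR-96 and miR-182, at 0.13 and 0.56 against 0.79 and 0.83 cycles for miR-183 and miR-182. At P15, which includes replicate 3 at 5.10 cycles, and at P25 it was larger, at 2.62 and 1.16 against 1.16 and 0.41. The difference of miR-183 and miR-96 was 2.20 ± 1.50 cycles (SD, n = 11), and 36.6% of pairs were steadier. miR-183 was thus set off from miR-182 by a steadier difference than from miR-96, whose hairpin is the nearer one in the genome, though the SDs were not tested against each other.

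By age, the mean difference of miR-183 and miR-182 (± SD, n = 3 each) was 4.30 ± 0.79 cycles at E20, 3.86 ± 0.83 at P5, 3.97 ± 1.16 at P15 and 5.04 ± 0.41 at P25. The P25 samples, at 4.63, 5.46 and 5.04 cycles, overlapped with E20 replicate 2 at 5.18 and with P15 replicate 2 at 4.99. They lay just above all P5 samples, the highest of which was at 4.61, and this difference was not tested. For miR-96 minus miR-182 the E20 samples lay close together, at 2.20, 2.10 and 2.36 cycles, and overlapped with P5 and P25. The largest departure was P15 replicate 3, where miR-96 came 5.10 cycles after miR-182 and the order of miR-96 and miR-183 was turned, with miR-183 crossing the threshold 0.88 cycles before miR-96. In the 10 other samples with both values miR-96 came first.

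**Figure D4:**
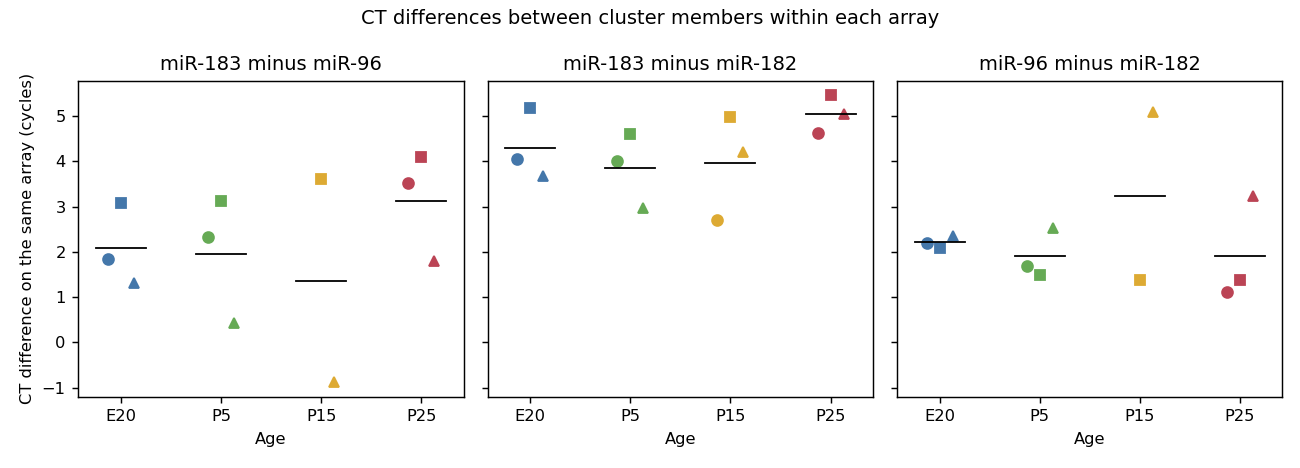
CT difference between 2 cluster members on the same array (y axis, cycles) by age (x axis), 1 point per sample with the replicate number as shape and a black line at the age mean. miR-183 minus miR-182 stayed between 2.71 and 5.46 cycles, and P15 replicate 3 stood apart in both differences that include miR-96.

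Correlations of the normalized levels over the samples, which share the array reference, gave no pair that passed with the array median as reference. miR-183 and miR-182 had a Pearson r of 0.526 (n = 12, permutation p = 0.0512, two-sided) and a Spearman rho of 0.406 (permutation p = 0.194), with values adjusted over the 3 pairs of 0.124 and 0.291. This relation rested on the P15 samples: without P15 replicates 1 and 3, the samples farthest from the median of miR-183, r was -0.0886, and without P15 replicate 1 alone it was 0.256. miR-183 and miR-96 did not pass either, with r = -0.545 (n = 11, permutation p = 0.0824, adjusted 0.124) and rho = -0.536 (permutation p = 0.0930, adjusted 0.279), and r was -0.211 without P15 replicate 3 and P25 replicate 2. miR-96 and miR-182 had r = -0.140 (n = 11, permutation p = 0.680, adjusted 0.680) and rho = 0.155 (permutation p = 0.653, adjusted 0.653). Without P5 replicate 3 and P15 replicate 3, r was 0.243, and without P15 replicate 3 alone it was 0.513.

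Within ages, as deviations from the age means, r was -0.689 for miR-183 and miR-96, 0.628 for miR-183 and miR-182 and 0.0091 for miR-96 and miR-182. Exact two-sided permutation within ages gave p = 0.0833, 0.392 and 0.984, or 0.250, 0.588 and 0.984 after adjustment over the 3 pairs. The values differed with the array reference. On the CT scale as deposited, where the differences in median CT between arrays enter, r was 0.872 for miR-183 and miR-182 (n = 12, permutation, adjusted p = 0.000330), 0.670 for miR-96 and miR-182 (n = 11, permutation, adjusted p = 0.0364) and 0.454 for miR-183 and miR-96 (n = 11, permutation, adjusted p = 0.160). With the median of the 120 assays detected in all samples as reference, r was -0.683 for miR-183 and miR-96 (n = 11, permutation, adjusted p = 0.0439), which passed, and 0.015 for miR-183 and miR-182 (n = 12, permutation, adjusted p = 0.972).

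**Figure D5:**
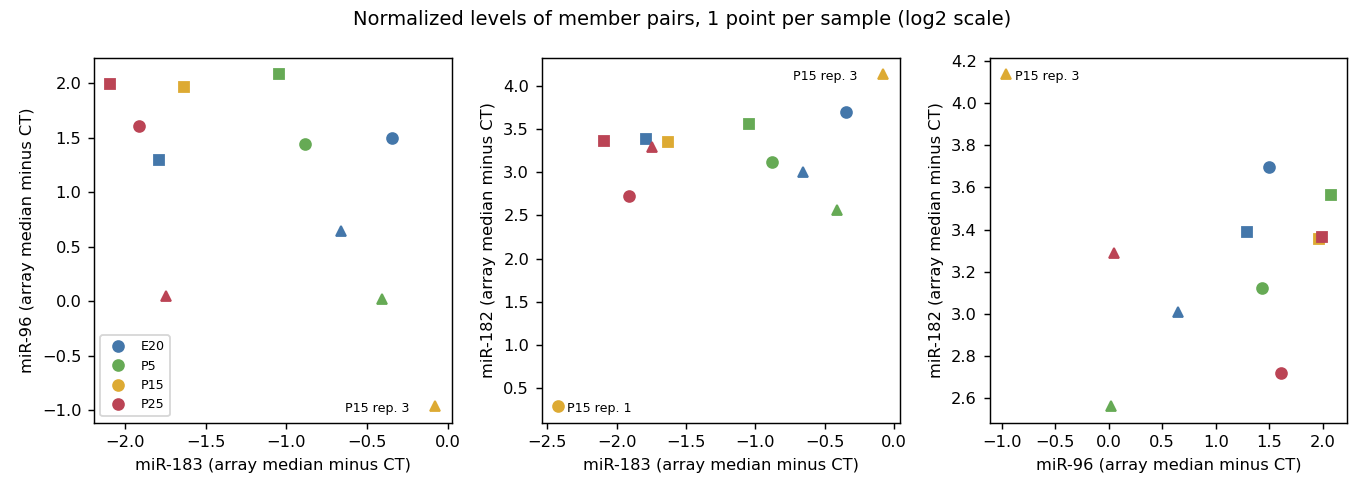
Normalized levels (both axes, array median CT minus CT, log2 scale) of each pair of cluster members, 1 point per sample, coloured by age with the replicate number as shape. P15 replicate 1 is low for both miR-183 and miR-182, and P15 replicate 3 is high for both and lowest for miR-96.

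The members were not each other's nearest neighbours on the panel. By Pearson r over the samples, given as a description of points that share an array reference, miR-182 ranked 26 among 182 assays for miR-183, and miR-96 ranked 174. Seen from miR-182, miR-183 ranked 56 and miR-96 ranked 149 of 182. Over all pairs of tested assays, 84.5% had a lower r than miR-183 and miR-182, 32.8% a lower r than miR-96 and miR-182, and 7.51% a lower r than miR-183 and miR-96.

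Each member had another set of closest assays. For miR-183 they were miR-20a and miR-106b, related miRNAs known from proliferating cells, and miR-205, a miRNA of stratified and glandular epithelium, with r of 0.807, 0.795 and 0.791 over 12 samples. For miR-96 they were the rat-labelled assay of miR-345-5p (r = 0.812), miR-33, which acts in cholesterol metabolism (r = 0.810), and let-7i, of the let-7 family (r = 0.808), over 11 samples each. The mouse-labelled assay of miR-345-5p was tested as well and was not among them. For miR-182 they were the widely expressed miR-16, miR-21 and miR-24, with r of 0.927, 0.907 and 0.859 over 12 samples. The likeness of miR-182 to these miRNAs was smaller without P15 replicate 1, with r of 0.618, 0.681 and 0.709, while for miR-183 r was 0.763, 0.724 and 0.752.

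Other miRNAs of epithelium and of sensory or secretory cells were set beside the cluster. Of the 7 assays of the miR-200 family none passed between E20 and P25, with log2 changes from 1.00 to 2.75 and a median of 2.03, against a median of 0.15 over all tested assays. miR-203, of stratified epithelium, and miR-205 did not pass either, with changes of -2.13 and -2.23. Among the 4 tested assays of 7 on the sensory and neuroendocrine list, 0 fell and 1, miR-375, rose. Its change was 8.09 on the log2 scale (limma, standard error 1.32, adjusted p = 0.00106), with a CT in 10 of 12 samples and the missing wells imputed. miR-375 is known from endocrine cells, and the paper describes it as expressed in adult salivary glands as well. On the same list miR-204, a miRNA of the retina and choroid plexus, changed by -0.54 (adjusted p = 0.747, limma), miR-7a by -0.50 (adjusted p = 0.747, limma) and the neuronal miR-124 by -2.72 (adjusted p = 0.139, limma). The list had a median change of -0.52. Of the other lists, none of the 5 tested leukocyte assays and not the 1 endothelial assay passed, with median changes of -0.52 and 0.93, and of the 6 mesenchymal assays miR-145 rose by 4.74 (adjusted p = 0.0388, limma) and miR-214 fell by 4.53 (adjusted p = 0.00466, limma). None of the 3 erythrocyte assays was detected often enough to be tested.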

How the data were processed

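Total RNA of 12 samples of laser-captured parotid acinar cells was measured by the authors on the Exiqon Mouse&Rat panel I. The authors deposited 1 raw CT per well, neither normalized nor imputed, and it was handled here as a score in cycles. Per the file headers and the labels each column is 1 sample. Undetermined wells were read as missing. The members and lists were chosen with earlier results of these data known.

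Kept were 192 of 375 assays, those with a CT under 40 in 2 or more of the 3 samples of each age. The level was the array's median over its detected miRNAs minus the CT, and 122 of 2304 wells were imputed by 10 nearest neighbors, 1 of them in the cluster (miR-96, P15 replicate 1, at -0.11). limma 3.58.1 in R 4.3.3 fitted 4 age means, and p-values were adjusted by Benjamini-Hochberg over the 192 assays. Trends used age in days, with E20 placed 2 days before birth. Correlations used measured values and 100000 permutations, or exact ones within ages (scipy 1.17.1 and numpy 2.4.6), and figures were drawn with matplotlib 3.10.9. The fit was tested on 20 simulated tables, and 3.12% of its calls there were false. These tables had independent noise and wells missing at random. They lacked deviations shared between samples, so the shares may differ in the data.

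The ages share replicate numbers. Deviations from age means of same-numbered samples correlated from -0.234 to 0.123 in the pairs with E20, 1 of 9 over 0.1, and from 0.126 to 0.563 among P5, P15 and P25, 9 of 9 over 0.1. No label pairs samples across ages, so the numbers were used to pair the postnatal ages, and not E20, on the values alone. Replicate 1 had the fewest detected miRNAs of its age at P5, P15 and P25, at 224, 179 and 202. Whether such differences between arrays underlie the correlations was not tested. Named miRNAs were the cluster, the 3 assays most correlated with each member, and list members that passed or marked a range. The alternatives changed the array reference, the filter, the missing values, the CT limit, the statistics, the samples and the block.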

Additional observations from a re-analysis of the deposited data

How the results depend on the processing

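No member was called among the 4 ages, between E20 and P25 or for a linear trend in any of the 27 or 28 other settings run for each, in which 2 or 3 members could be tested; 1 member, miR-183, passed an unadjusted threshold of 0.05 from E20 to P25 without normalization (log2 change -2.71, adjusted p = 0.109, limma). For the linear trend 1 member did so without normalization (adjusted p = 0.0691, limma) and with the mean of the assays detected in all samples (adjusted p = 0.118, limma). The count called remained 0 in all 12 fits that left out 1 sample, for each of these comparisons. The replicate number as a block gave 0 members called between E20 and P25, with an adjusted p-value of 0.383 for miR-183, and changed no other call of a member. With the block over the postnatal ages only, chosen after seeing the data, the P5 to P25 change of miR-183 stayed at -1.14 (adjusted p = 0.434, limma). The changes of miR-96 and miR-182 between E20 and P25 had no settled sign. For miR-96 the change was -0.11 with the mean of the assays detected in all samples as reference, -1.65 without normalization, -0.22 and -0.66 with CT above 37 and 35 taken as not detected, and from -0.32 to 0.66 with 1 sample left out. It was negative without E20 replicate 3, P25 replicate 1 or P25 replicate 2. For miR-182 it was 0.58 with the small nuclear RNAs and 0.49 with the array median taken after imputation, a setting chosen after seeing the data, and from -0.42 to -0.03 with 1 sample left out. miR-183 stayed negative in all 27 settings in which it could be tested, from -2.71 without normalization to -0.17 with the small nuclear RNAs. With CT above 35 taken as not detected it could not be tested, since no P25 well was left.

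The correlations depended on the reference. With the small nuclear RNAs, of which 3 were detected on 10 arrays and 2 on the other 2, every pair passed, with adjusted permutation p-values of 3e-05 to 5e-05. Here r was 0.932 for miR-183 and miR-96, 0.969 for miR-183 and miR-182 and 0.953 for miR-96 and miR-182. Without normalization these were 0.454, 0.872 and 0.670, and the pairs with miR-182 passed (adjusted permutation p = 0.000330 for miR-183 and 0.0364 for miR-96). With the median of the assays detected in all samples, r was -0.683 for miR-183 and miR-96, which then passed (adjusted permutation p = 0.0439). With CT above 35 as not detected, r was -0.072 for miR-183 and miR-182 (n = 7, without any P25 sample) and 0.247 for miR-96 and miR-182 (n = 11). With the missing well at CT 40, r was 0.202 for miR-183 and miR-96 and 0.771 for miR-96 and miR-182. With 1 sample left out, r ran from -0.708, without P25 replicate 3 and there with an adjusted permutation p of 0.0491, to -0.329 for miR-183 and miR-96, from 0.256 to 0.625 for miR-183 and miR-182, and from -0.422 to 0.513 for miR-96 and miR-182. The part of the reference in the differences between settings was not tested further.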

Other observations

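The levels of miR-96 moved with the replicate number, a pattern noticed after the values were seen. Replicate 3 had the lowest measured miR-96 at each of the 4 ages, at 0.65, 0.02, -0.96 and 0.05 for E20, P5, P15 and P25. At P15 only 2 samples had a CT, and replicate 1, which had none, may have held less miR-96 than replicate 3. With the replicate number as a block the SD of miR-96 around the fit was 0.57, against 1.08 without it, both with P15 replicate 1 imputed at -0.11. For miR-183 the SD was 0.64 with the block and 0.73 without, and for miR-182 it was 1.09 and 1.08. Of the 192 tested assays, 9 (4.69%) had the same replicate lowest at all 4 ages by measured values, 4 of them replicate 3. Neither the labels nor the methods say whether a number marks a shared day, litter or batch across ages, and its part in the values of miR-96 was not tested.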
